A study of Mus musculus with 6 samples.

Results

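Genes of glycogen synthesis and breakdown were examined in livers described as lacking the splicing factor SRSF3 in hepatocytes. The genes were Ugp2, Gys2, Gbe1, Pygl, Phka2, Phkb, Phkg2, Ppp1r3b and Ppp1r3c. They were chosen by name, with earlier results of these data known. Each was read through every probe set that the array annotation gave to that gene alone. All 9 were on the array, with 179 of 229581 probe sets, among 16277 genes in all. Expression was read on Affymetrix mouse exon arrays, where most genes have several probe sets, each a small group of probes for a stretch of exon. The livers of 3 mice with Srsf3 knocked out in hepatocytes (SRSF3HKO) were set against 3 arrays of wild-type (WT) littermate liver, all untreated and 1 month old. The Cre driver and the deleted part of Srsf3 are not given in the sources used here. The labels do not say whether the WT arrays are separate mice, so the p-values speak of the spread among these 6 arrays, part of which may be technical.

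Glycogen is the branched glucose polymer in which the liver stores glucose after a meal and from which it supplies the blood during fasting. Ugp2 makes UDP-glucose, the liver glycogen synthase Gys2 adds its glucose to growing chains, and the branching enzyme Gbe1 makes the branches. The liver phosphorylase Pygl removes glucose units again. It is switched on by phosphorylase kinase, whose liver alpha subunit is Phka2, whose beta subunit is Phkb and whose catalytic gamma subunit is Phkg2. Ppp1r3b and Ppp1r3c hold protein phosphatase 1 on glycogen, where it activates the synthase and switches off the phosphorylase. Inherited loss of the human genes for several of these enzymes causes glycogen storage diseases.

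The 9 genes fell into a set of 4 with lower mean levels in SRSF3HKO livers and a set of 5 with means close to those of WT. Pygl was 2.71-fold lower and was the 1 gene that passed the test. Gbe1, Ppp1r3b and Ppp1r3c had log2 changes of -0.89, -1.52 and -0.97 and did not pass it. Gys2, Ugp2 and the kinase subunits Phka2, Phkb and Phkg2 had log2 changes between -0.05 and 0.05. Across the genome, 5.03% of 11711 tested genes were lower, 6.85% were higher and 11.9% were called in either direction, so 1 of 9 is a share near the background. The median log2 change was -0.05 over the 9 genes and 0.08 over all genes tested. Levels are log2(intensity + 16), the median over a gene's probe sets. A log2 change is SRSF3HKO minus WT on that scale, where the added 16 shrinks changes of dim genes. It is given with its SE, and a gene is called at a limma adjusted p under 0.05 over all genes tested. In whole tissue, fewer cells of a type and less RNA per cell cannot be told apart.

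**Figure D1:**
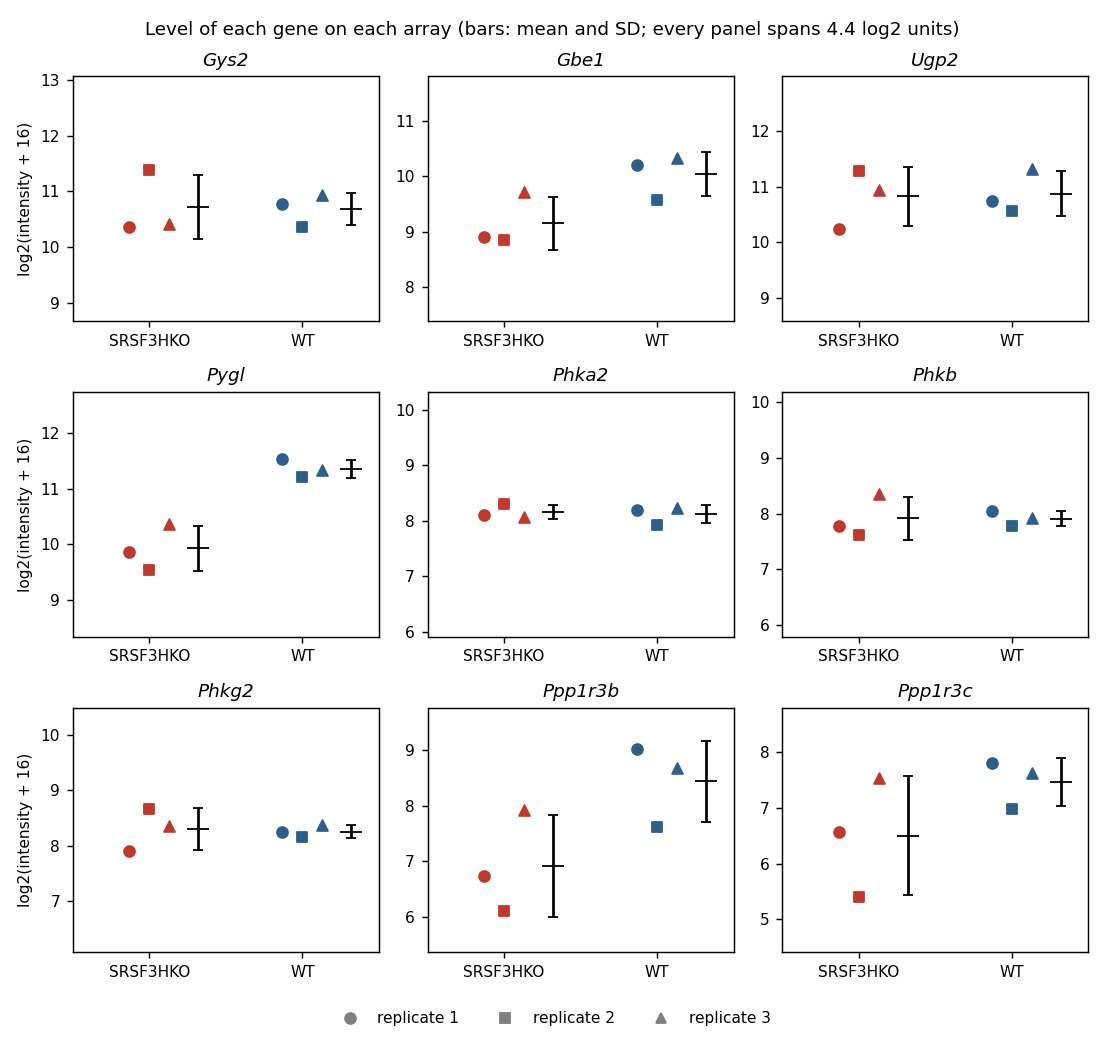
Level of each of the 9 genes, as log2(intensity + 16) on the vertical axis, on the 3 SRSF3HKO arrays (red, left) and the 3 WT arrays (blue, right), with marker shape for the replicate and black bars for mean and SD. The groups stand apart for Pygl alone, with SRSF3HKO at 9.54 to 10.36 and WT at 11.21 to 11.53. SRSF3HKO replicate 2 is the lowest point for Gbe1, Pygl, Phkb, Ppp1r3b and Ppp1r3c.

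Promoter sequence, 250 bases before to 50 after the annotated start, was found in RefSeq (build GRCm38.p6) for 7 of the 9 genes, in 8 windows because Ugp2 has 2. Gys2 and Ppp1r3b were not among them. The windows of Pygl, Gbe1 and Ppp1r3c are shown because these 3 are the genes of the lower set for which one was found. They are written 5′ to 3′ on the gene's strand, with capitals for every match to the motifs searched.
Pygl promoter, chr12:70227634-70227933, strand -: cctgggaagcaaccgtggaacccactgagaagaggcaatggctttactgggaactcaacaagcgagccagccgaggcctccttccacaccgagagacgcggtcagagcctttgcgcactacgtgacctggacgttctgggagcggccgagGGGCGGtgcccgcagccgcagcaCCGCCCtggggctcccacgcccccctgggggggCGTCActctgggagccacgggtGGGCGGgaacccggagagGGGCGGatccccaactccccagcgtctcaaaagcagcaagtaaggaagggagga
Gbe1 promoter, chr16:70313699-70313998, strand +: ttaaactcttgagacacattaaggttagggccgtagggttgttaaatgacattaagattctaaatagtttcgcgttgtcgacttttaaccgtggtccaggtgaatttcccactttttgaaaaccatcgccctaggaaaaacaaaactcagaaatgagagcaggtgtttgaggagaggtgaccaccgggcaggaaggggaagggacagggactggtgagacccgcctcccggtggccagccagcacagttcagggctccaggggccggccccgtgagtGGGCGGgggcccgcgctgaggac
Ppp1r3c promoter, chr19:36736555-36736854, strand -: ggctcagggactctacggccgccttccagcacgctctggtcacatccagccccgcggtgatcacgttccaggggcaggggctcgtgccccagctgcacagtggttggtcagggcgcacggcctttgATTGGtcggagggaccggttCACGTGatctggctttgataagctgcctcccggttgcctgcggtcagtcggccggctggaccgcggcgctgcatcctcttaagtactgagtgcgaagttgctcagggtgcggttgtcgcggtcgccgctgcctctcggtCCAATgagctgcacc

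The motifs were searched on both strands. They were the E-box CACGTG, the cAMP response element TGACGTCA and the shorter form TGACG, which lies within it, the CCAAT box CCAAT, the TATA box TATAAA, the GC box GGGCGG and the C/EBP palindrome TTGCGCAA. The Pygl window held 4 GC boxes and 1 TGACG, which lay on the opposite strand 44 bases before the start. The Gbe1 window held 1 GC box, and the Ppp1r3c window held 1 E-box, 104 bases before the start, and 2 CCAAT boxes. GC boxes occurred in windows of 6 of the 7 genes and in 35.7% of all 32851 promoter windows. TGACG occurred in Pygl and Phkb and in 20.8% of all windows, and the E-box in Ppp1r3c and in 7.15% of all windows. CCAAT boxes occurred in Phkg2, Ppp1r3c and Ugp2 and in 37.4% of all windows. The full cAMP response element, the TATA box and the C/EBP palindrome were in none of the 8 windows, and in 1.79%, 13.6% and 0.183% of all windows. A match describes these letters and no more.

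The arrays had median intensities of 81.5 to 89.6 in SRSF3HKO and 75.3 to 85.9 in WT. Across tested genes, Pearson's r was 0.904 to 0.949 between SRSF3HKO arrays and 0.973 to 0.981 between WT arrays, a description across genes, which are not replicates. The targeted gene Srsf3 had log2 values of 10.30, 9.10 and 9.78 in SRSF3HKO and 9.79, 9.24 and 9.35 in WT (log2 change 0.26 ± 0.31, limma adjusted p = 0.625). Its probe sets moved apart: of 13 tested, 6 were called higher, by 1.25 to 1.68 on the log2 scale. Another 3 had negative changes of -0.89 to -1.03 that were not called. Since the deleted part is not given and the probe sets were not placed on the gene, neither direction was read as a check of the labels. Hepatocyte markers were present on all arrays and 6 of 7 were not called, with summed intensities of 59626 to 68864 in SRSF3HKO and 68621 to 71187 in WT; Serpina1e was lower. Macrophage markers summed to 1839 to 13522 in SRSF3HKO, the highest in replicate 1, and to 1993 to 2364 in WT, with 1 of 6 (Marco) called higher. Kdr of 5 endothelial markers, Col3a1 of 5 stellate markers and Alas2, the 1 tested erythroid marker, were lower. Endothelial markers summed to 1082 to 2806 in SRSF3HKO and 1998 to 3033 in WT, stellate markers to 525 to 1102 and 1003 to 1384, and the 2 erythroid markers with probe sets to 62.9 to 221 and 394 to 943. Cholangiocyte markers summed to 828 to 2982 in SRSF3HKO and 494 to 704 in WT, with none of 5 called. Only Spp1, the brightest of them on every array, had groups without overlap. Its log2 values were 11.41, 9.30 and 9.25 in SRSF3HKO and 8.68, 8.34 and 8.25 in WT. For Krt19, Krt7, Epcam and Sox9 the groups overlapped. Of 5 skeletal muscle markers none was called, Myh4 and Mb were too dim to test, and sums were 148 to 173 in SRSF3HKO and 150 to 188 in WT. The part of these cell types in the results was not tested. Y-linked Eif2s3y was above the detection floor in SRSF3HKO replicate 3 and WT replicates 1 and 2 and below it on the other 3 arrays.

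Ugp2, which supplies UDP-glucose, had log2 values of 10.25, 11.29 and 10.95 in SRSF3HKO livers, against 10.75, 10.56 and 11.33 in WT livers. The groups overlapped, and the log2 change was -0.05 ± 0.31 with a 95% interval of -0.76 to 0.66 (limma adjusted p = 0.932). Its 13 probe sets were all bright enough to test, and 12 of them changed by -0.28 to 0.18 and were not called. The remaining one, probe set 5546846, had intensities of 774, 1253 and 1260 in SRSF3HKO and 454, 416 and 517 in WT, with no overlap. It rose by 1.19 ± 0.25 on the log2 scale (limma adjusted p = 0.0217 over all probe sets). Among all 157764 probe sets tested, 9.05% were called, 4.73% as higher, and 18.3% had groups that did not overlap and were higher in SRSF3HKO. Relative to the other Ugp2 probe sets its usage change was 1.17, which did not pass diffSplice (adjusted p = 0.201). It was the 1 probe set called higher among the 9 genes. Its call ended without SRSF3HKO replicate 3, without any 1 of the WT arrays and when the Y-linked signal entered the fit.

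Gys2, the enzyme that builds the chains, had log2 values of 10.36, 11.38 and 10.42 in SRSF3HKO and 10.77, 10.37 and 10.93 in WT. SRSF3HKO replicate 2 stood above every other array, and the groups overlapped. The log2 change was 0.03 ± 0.30, with a 95% interval of -0.66 to 0.72 (limma adjusted p = 0.959). All 21 probe sets were tested and none was called, 10 with a negative change, over a range of -0.45 to 0.61. At the ends of that range, probe set 4355358 had intensities of 964, 3024 and 1226 in SRSF3HKO and 2152, 1724 and 2462 in WT. Probe set 5197112 had 1799, 3176 and 1868 in SRSF3HKO and 1346, 1139 and 1930 in WT. Without SRSF3HKO replicate 2 the gene's log2 change was -0.30 (limma adjusted p = 0.334).

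Gbe1, the branching enzyme, had log2 values of 8.90, 8.86 and 9.71 in SRSF3HKO and 10.21, 9.58 and 10.33 in WT. SRSF3HKO replicate 3 lay above WT replicate 2, the 1 crossing between the groups. The log2 change was -0.89 ± 0.30, with a 95% interval of -1.57 to -0.20 (limma adjusted p = 0.0933). All 20 probe sets were tested, all had lower means in SRSF3HKO, and 5 were called lower, against 4.32% lower among all probe sets tested. Probe sets of a gene share the same RNA and are not replicates. The 5 called lower changed by -1.20 to -1.37. Probe set 5133215, with the largest fall, had intensities of 177, 238 and 442 in SRSF3HKO and 840, 537 and 805 in WT (limma adjusted p = 0.0392). Probe set 5166624, with the smallest change, had 140, 55.8 and 248 in SRSF3HKO and 187, 137 and 204 in WT (log2 change -0.40). The count of 5 became 0 without SRSF3HKO replicate 1 and without any 1 of the WT arrays, 4 without SRSF3HKO replicate 2 and 11 without replicate 3. It was also 0 when the Y-linked signal entered the fit and with no filter on dim probe sets. Without SRSF3HKO replicate 3 the gene's log2 change was -1.16 and it was called (limma adjusted p = 0.0432).

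Pygl, the enzyme that takes glycogen apart, had log2 values of 9.87, 9.54 and 10.36 in SRSF3HKO and 11.53, 11.21 and 11.34 in WT. In intensity these levels are 918, 728 and 1298 in SRSF3HKO and 2945, 2350 and 2581 in WT, so every SRSF3HKO array lay below every WT array. Groups without overlap and lower in SRSF3HKO were seen in 14.0% of all genes tested. Pygl fell by 1.44 ± 0.24 on the log2 scale, with a 95% interval of -1.98 to -0.89 (limma adjusted p = 0.0101). Leaving out WT replicate 1 ended the call at a log2 change of -1.35 (limma adjusted p = 0.0660), as did leaving out WT replicate 2, at -1.51 (limma adjusted p = 0.0533). It held in the other 4 fits that left out an array.

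The difference in Pygl was not confined to a few of its probe sets. All 23 of its probe sets had lower means in SRSF3HKO, 20 had groups that did not overlap and 14 were called lower, against 13.5% and 4.32% of all probe sets tested. Probe set 4355155, with the lowest p, had intensities of 900, 795 and 1249 in SRSF3HKO and 3083, 2763 and 3016 in WT. It fell by 1.60 ± 0.21 on the log2 scale (limma adjusted p = 0.00386). The 14 probe sets called lower changed by -1.07 to -1.68. At the upper end of the range, the dim probe set 4665751 had 68.8, 55.4 and 135 in SRSF3HKO and 129, 110 and 88.9 in WT, a log2 change of -0.36. At the lower end, probe set 5183463 had 223, 59.1 and 17.2 in SRSF3HKO and 403, 306 and 294 in WT, a log2 change of -2.05 that was not called (limma adjusted p = 0.0643). No Pygl probe set differed in usage from the rest of its gene (lowest diffSplice adjusted p = 0.494). Leaving out WT replicate 1, 2 or 3 gave 4, 7 and 8 called Pygl probe sets in place of 14.

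**Figure D2:**
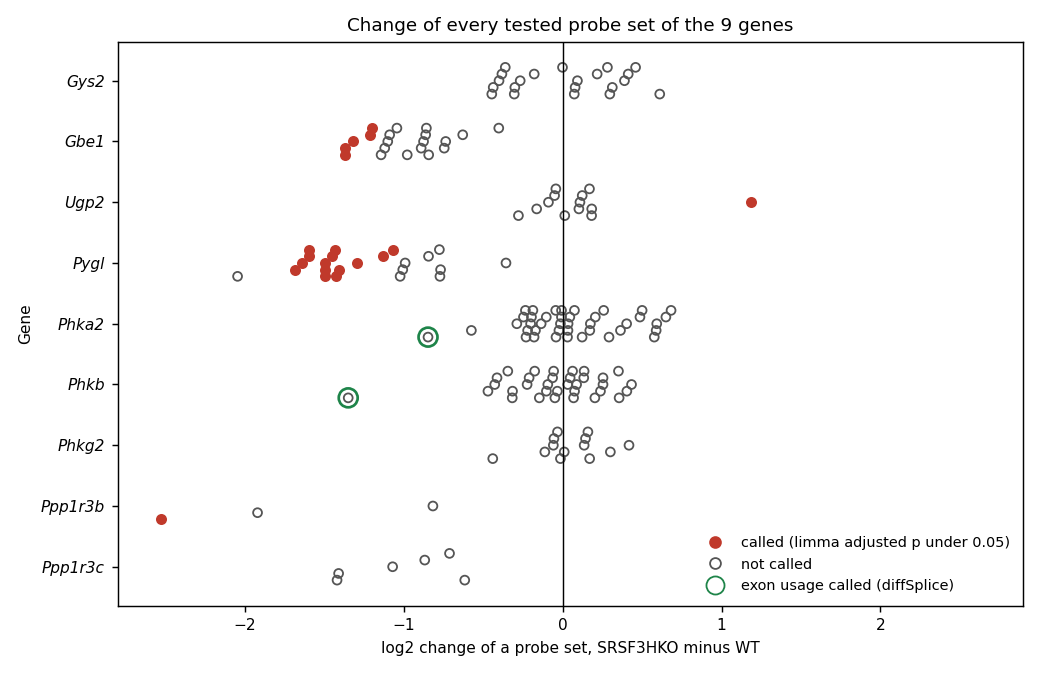
Log2 change (SRSF3HKO minus WT, horizontal axis) of each of the 172 tested probe sets, 1 row of points per gene, spread vertically for legibility. Red points were called, open points were not, and green rings mark the 2 probe sets with a called exon usage change. All 23 points of Pygl and all 20 of Gbe1 lie left of 0, while those of Gys2, Phka2, Phkb and Phkg2 lie on both sides.

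The kinase that activates Pygl did not follow it in mean level. Phka2, the liver alpha subunit, had log2 values of 8.11, 8.30 and 8.06 in SRSF3HKO and 8.20, 7.93 and 8.22 in WT, with overlapping groups (log2 change 0.04 ± 0.19, interval -0.39 to 0.47). Phkb, the beta subunit, had 7.78, 7.62 and 8.35 in SRSF3HKO and 8.04, 7.78 and 7.91 in WT (log2 change 0.01 ± 0.24, interval -0.53 to 0.55). Phkg2, the catalytic subunit, had 7.90, 8.67 and 8.35 in SRSF3HKO and 8.24, 8.16 and 8.37 in WT (log2 change 0.05 ± 0.23, interval -0.49 to 0.58). For all 3 subunits the SRSF3HKO arrays lay on both sides of the WT mean, and the limma adjusted p was 0.914, 0.989 and 0.916. None of the 40, 33 and 13 tested probe sets of Phka2, Phkb and Phkg2 was called.

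A pair of kinase probe sets differed in usage from the rest of their genes, 2 of 172 tested among the 9 genes, against 0.662% of 142800 probe sets tested by diffSplice. Phka2 probe set 5110854 had intensities of 364, 685 and 600 in SRSF3HKO and 899, 1189 and 851 in WT, without overlap, and its usage changed by -0.93 (diffSplice adjusted p = 0.0329). Phkb probe set 5531439 had 226, 21.7 and 13.4 in SRSF3HKO and 147, 130 and 170 in WT, and its usage changed by -1.34 (diffSplice adjusted p = 0.0243). For the Phkb probe set, SRSF3HKO replicate 1 was the brightest of the 6 arrays and the other 2 SRSF3HKO arrays were below the detection floor. Neither usage call held in the per-array splicing index (limma adjusted p = 0.328 and 0.568). The Phka2 call ended in 5 of the 6 fits that left out an array, all but the one without SRSF3HKO replicate 2. The Phkb call also ended in 5 of 6, all but the one without SRSF3HKO replicate 1. Adjusted p ran up to 0.625 for Phka2 and 0.948 for Phkb. The Phkb usage change was -0.58 without SRSF3HKO replicate 3, -2.37 without replicate 1 and -0.77 at a pseudocount of 64. The positions of these probe sets on the transcripts were not analysed here. At the other end of the range, Phka2 probe set 5569444 had 76.7, 87.8 and 60.4 in SRSF3HKO and 38.7, 26.7 and 60.1 in WT, and Phkb probe set 5485664 had 826, 459 and 1268 in SRSF3HKO and 545, 542 and 650 in WT. The 13 Phkg2 probe sets spanned a narrower range, from -0.44 for probe set 4943184 to 0.42 for probe set 4869120.

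Ppp1r3b, known as the liver glycogen targeting subunit of phosphatase 1, had a mean difference of about the size of that of Pygl, with a wider spread. Its log2 values were 6.73, 6.10 and 7.91 in SRSF3HKO and 9.02, 7.61 and 8.68 in WT. SRSF3HKO replicate 3 lay above WT replicate 2, so the groups overlapped, and both groups were widely spread (SD 0.92 and 0.74, n = 3 each). The log2 change was -1.52 ± 0.50, with a 95% interval of -2.67 to -0.37 (limma adjusted p = 0.0867). Of its 4 probe sets 3 were tested, all with lower means, and 1 was called. That one, probe set 4655996, had intensities of 408, 136 and 956 in SRSF3HKO and 3753, 1272 and 2462 in WT, and changed by -2.53 ± 0.62 on the log2 scale (limma adjusted p = 0.0381). This call ended without SRSF3HKO replicate 1, without any 1 of the WT arrays, when the Y-linked signal entered the fit and with no filter on dim probe sets. Probe set 5047877 had 597, 146 and 783 in SRSF3HKO and 2733, 937 and 1622 in WT, also without overlap (log2 change -1.92, limma adjusted p = 0.0746). Probe set 4402032 had 10.7, 14.9 and 56.9 in SRSF3HKO and 81.4, 23.9 and 68.6 in WT, with overlap and a log2 change of -0.82. The fourth, probe set 5533873, was too dim to test, with 0.00404, 0.00356 and 0.0107 in SRSF3HKO and 43.8, 8.48 and 86.8 in WT. Without SRSF3HKO replicate 3 the gene's log2 change was -2.02 and it was called (limma adjusted p = 0.0340).

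Ppp1r3c, the targeting subunit also known as protein targeting to glycogen, had log2 values of 6.56, 5.40 and 7.54 in SRSF3HKO and 7.80, 6.98 and 7.63 in WT. The SRSF3HKO arrays spread over more than 2 log2 units, and the highest of them lay within the WT range. The log2 change was -0.97 ± 0.49, with a 95% interval of -2.10 to 0.16 (limma adjusted p = 0.236). Of 7 probe sets 6 were tested, all with lower means and none called, over a range of -0.62 to -1.42. Probe set 4759819 had intensities of 289, 75.6 and 720 in SRSF3HKO and 1200, 423 and 723 in WT. Probe set 4845639 had 78.6, 32.3 and 170 in SRSF3HKO and 161, 110 and 121 in WT. Without SRSF3HKO replicate 2 the gene's log2 change was -0.42, and without replicate 3 it was -1.49, not called in either fit (limma adjusted p = 0.453 and 0.0619).

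The 4 genes with lower means had the same lowest and highest SRSF3HKO array. SRSF3HKO replicate 2 was the lowest and replicate 3 the highest SRSF3HKO array for Gbe1, Pygl, Ppp1r3b and Ppp1r3c. Phkb, which was not in the lower set, had the same order, at 7.78, 7.62 and 8.35. WT replicate 2 was the lowest WT array for all 9 genes, and its median intensity of 75.3 was the lowest of the 6 arrays. SRSF3HKO replicate 2 was the highest SRSF3HKO array for Gys2, Phka2, Phkg2 and Ugp2. Replicate 3 was also the 1 SRSF3HKO array with Y-linked signal. Against the 2 WT arrays with that signal, it gave log2 changes of -1.01 for Pygl, -0.19 for Gbe1, -0.40 for Ppp1r3b and 0.15 for Ppp1r3c. The 2 SRSF3HKO arrays without the signal, against the 1 WT array without it, gave -1.64, -1.45, -2.26 and -1.65 for the same genes. For the other 5 genes these changes ran from -0.14 to 0.44 among arrays with the signal and from -0.56 to -0.02 among those without. These within-signal values rest on 3 arrays each and have no test. With the signal as a covariate over all 6 arrays, Pygl changed by -1.32 and was called (limma adjusted p = 0.0296), and Gbe1, Ppp1r3b and Ppp1r3c changed by -0.82, -1.33 and -0.75 (limma adjusted p = 0.190, 0.179 and 0.410).

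**Figure D3:**
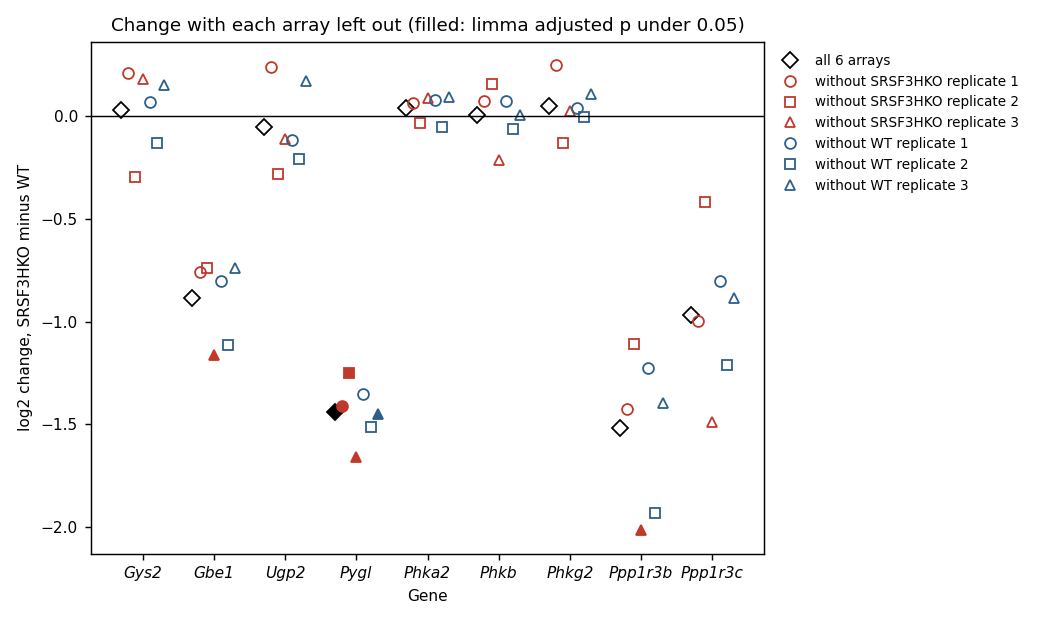
Log2 change (SRSF3HKO minus WT, vertical axis) of each gene with all 6 arrays (black diamonds) and with each SRSF3HKO (red) or WT (blue) array left out; filled symbols were called (limma adjusted p under 0.05). Pygl stayed between -1.25 and -1.66, Gbe1 between -0.74 and -1.16 and Ppp1r3b between -1.11 and -2.02, while Gys2, Ugp2, Phka2, Phkb and Phkg2 scatter on both sides of 0.

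The 3 genes outside this group whose levels ran most like those of Pygl over the 6 arrays were Dhdh, Hacl1 and Cers2, among 11304 tested genes with at least 3 probe sets. Pearson's r was 0.9998, 0.9992 and 0.9983, as a description over arrays that share the difference between the groups. Dhdh codes for a dihydrodiol dehydrogenase, Hacl1 for a peroxisomal enzyme of fatty acid alpha-oxidation, and Cers2 for a ceramide synthase. Their log2 changes were -1.82, -1.28 and -0.64, and all 3 were called lower (limma adjusted p = 0.00897, 0.0125 and 0.0484).

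A list of 37 further glycogen genes held 26 with probe sets of 1 gene, of which 23 were bright enough to test. In this list 1 gene was lower and none higher, against 5.03% and 6.85% of all genes tested, and its median log2 change was -0.04. Groups did not overlap for 9 genes that were lower and 3 that were higher in SRSF3HKO, against 14.0% and 21.6% of all genes tested. The muscle forms Phkg1 and Ppp1r3a and the laforin gene Epm2a were below the floor and not tested. The remaining 11 listed genes were not analysed here.

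The hormone inputs held the 1 called gene, the glucagon receptor gene Gcgr. Its log2 values were 8.99, 8.80 and 9.33 in SRSF3HKO and 10.43, 10.11 and 10.11 in WT, without overlap. It fell by 1.18 ± 0.21 on the log2 scale (limma adjusted p = 0.0132), and leaving out any 1 of the WT arrays ended the call (limma adjusted p = 0.0794, 0.0603 and 0.0518). The adrenergic receptor gene Adra1b changed by -0.73 ± 0.20, and Prkaca and Prkacb, catalytic subunits of protein kinase A, by -0.51 ± 0.18 and -0.56 ± 0.19 (limma adjusted p = 0.0516, 0.102 and 0.0935). None of these 3 passed. For each of the 4 genes every SRSF3HKO array lay below every WT array, as for 14.0% of all genes tested.

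Among uncalled genes the 4 with the largest changes over all 6 arrays were Stbd1, Slc2a2, G6pc and Pygb. Stbd1, which binds glycogen, had log2 values of 8.14, 7.26 and 7.79 in SRSF3HKO and 9.27, 8.48 and 8.69 in WT (log2 change -1.09 ± 0.30, limma adjusted p = 0.0505), and was called without SRSF3HKO replicate 1 (limma adjusted p = 0.0351). Slc2a2, the main hepatocyte glucose transporter, had log2 levels of 11.00, 9.00 and 11.14 in SRSF3HKO and 11.52, 11.23 and 11.62 in WT (log2 change -1.08 ± 0.51, limma adjusted p = 0.205). Its lowest value was again that of SRSF3HKO replicate 2, without which the log2 change was -0.39. G6pc, the catalytic subunit of glucose-6-phosphatase, had 10.48, 11.87 and 11.21 in SRSF3HKO and 12.74, 11.88 and 11.90 in WT (log2 change -0.99 ± 0.37, limma adjusted p = 0.124). Its log2 change was -0.63 without SRSF3HKO replicate 1, and it was -1.33 and called without replicate 2 (limma adjusted p = 0.0264). Pygb, the brain form of glycogen phosphorylase, ran the other way from Pygl, with 8.19, 7.28 and 7.25 in SRSF3HKO and 6.75, 6.78 and 6.75 in WT (log2 change 0.81 ± 0.27, limma adjusted p = 0.0905). Its highest value was that of SRSF3HKO replicate 1, the array with the highest sum of macrophage markers, and without it the log2 change was 0.50. The part of macrophages in this difference was not tested. The groups did not overlap for any of these 4 genes, which were picked for their large changes. Among all genes tested, groups without overlap were seen in 14.0% as lower and in 21.6% as higher in SRSF3HKO.

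Of the other enzymes, the muscle synthase Gys1 and muscle phosphorylase Pygm changed by 0.26 and 0.08 and glycogenin (Gyg), which primes new chains, by 0.62 (limma adjusted p = 0.473, 0.828 and 0.0891). The catalytic subunits of protein phosphatase 1, Ppp1ca, Ppp1cb and Ppp1cc, changed by 0.01, 0.35 and 0.06 (limma adjusted p = 0.989, 0.246 and 0.910). The synthase kinase gene Gsk3b changed by -0.12 and Slc37a4, which carries glucose-6-phosphate into the endoplasmic reticulum, by 0.02 (limma adjusted p = 0.777 and 0.975). Gckr changed by -0.75 ± 0.25, without overlap (limma adjusted p = 0.0854). Adra1b and Gyg were called without SRSF3HKO replicate 2, and Gckr without replicate 3.

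**Figure D4:**
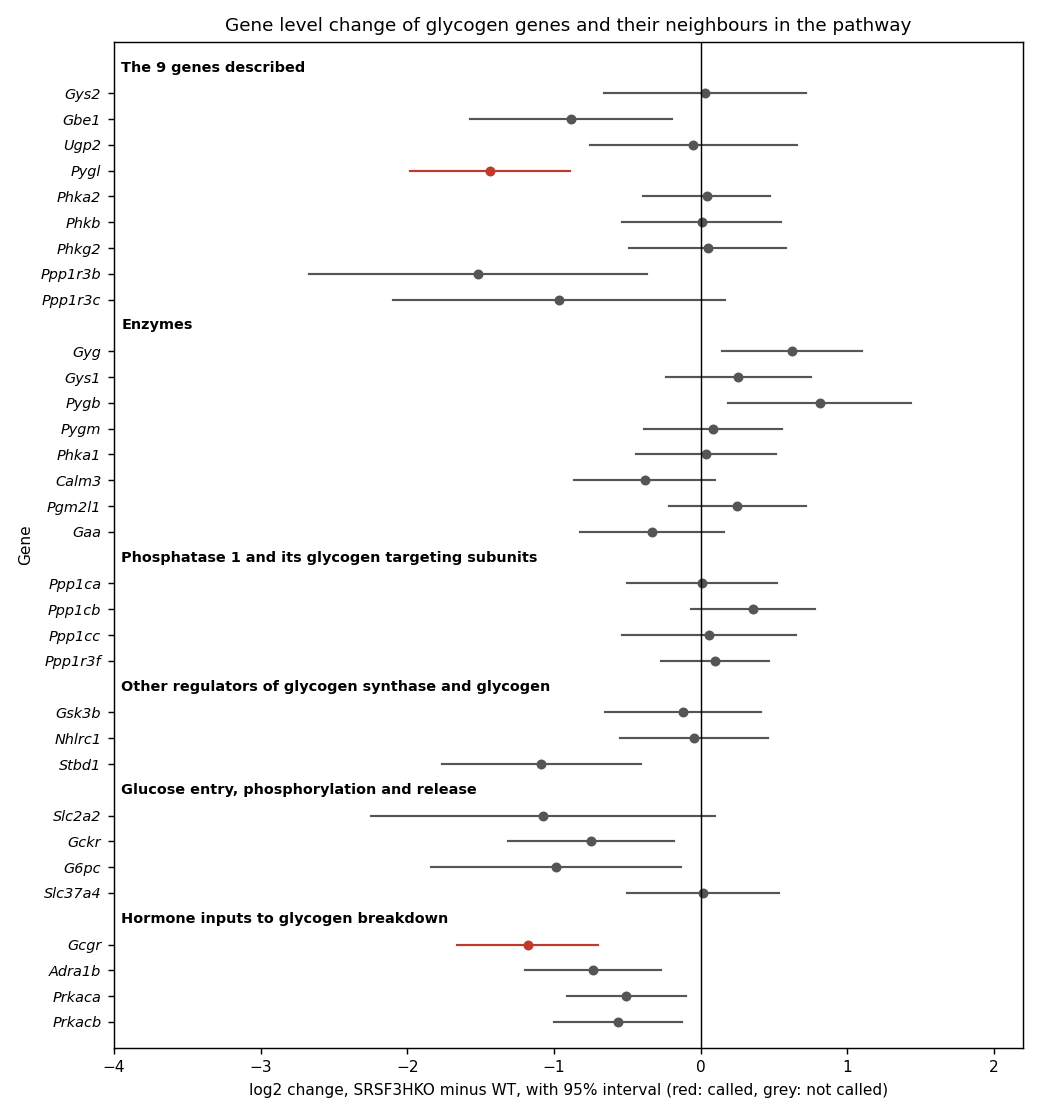
Log2 change (SRSF3HKO minus WT, horizontal axis) with its 95% interval for the 9 genes and the 23 tested genes of the wider list, grouped by role; red marks called genes. Pygl, at -1.44, and Gcgr, at -1.18, are the called genes. Among the 9 genes, the intervals of Gys2, Ugp2, Phka2, Phkb, Phkg2 and Ppp1r3c span 0.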

How the data were processed

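Core exons were summarised by the authors with PLIER and Affymetrix Expression Console, per the submitters' processing notes, which left deposited intensities on a linear scale. Versions, background step and build are not given in the sources used here. Intensities were transformed as log2(value + 16), and a gene's level was the median over probe sets annotated to that gene alone (208397 probe sets; older symbols were updated through RefSeq). Features entered a test if their mean exceeded the 90th percentile of the same measure in 1046 chemosensory receptor genes (olfactory, vomeronasal, taste; floors 5.35 and 5.63 on the log2 scale). The genotypes were compared in limma 3.58.1 under R 4.3.3 (eBayes with trend, Benjamini-Hochberg over all features), and exon usage with diffSplice in genes with at least 3 tested probe sets. The number of arrays limits the precision. The fits were also run on simulated data with known changes and the same spread in both groups. Here the median SD over all genes tested was 0.291 in SRSF3HKO and 0.187 in WT. That run therefore does not check the calls reported here.

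The genes and lists were chosen with earlier results of these data known. Named were all 9 genes, their probe sets with the lowest and highest change or a called usage change, called genes of the wider list and its 4 uncalled genes with the largest changes, and the 3 genes most correlated with each called gene. Probe set 4355155, the remaining Ppp1r3b probe sets and further genes of the wider list were named after their values were seen. Of the 2 Y-linked genes planned for the covariate, Eif2s3y was used; the other was not analysed here. Figures were drawn with matplotlib 3.10.9.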

Additional observations from a re-analysis of the deposited data

How the results depend on the processing

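Pygl kept its direction in all 19 alternatives, at log2 changes of -1.25 to -1.66; its call ended at an adjusted p under 0.01 and without WT replicate 1 or 2. Gbe1, Ppp1r3b and Ppp1r3c also kept their direction in all 19, with limma adjusted p of 0.0432 to 0.266, 0.0340 to 0.264 and 0.0619 to 0.470. No paired analysis was possible because the titles number the arrays singly across both genotypes, so no SRSF3HKO array shares a number with a WT array.

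Of the 9 genes, 1 was called, and 0 at an adjusted p under 0.01. With 1 array left out 0 to 3 were called, the 3 being Pygl, Gbe1 and Ppp1r3b without SRSF3HKO replicate 3. An unadjusted limma p under 0.05 was seen for 3 of the 9 genes and for 3400 of all 11711 genes tested. Over all genes, 1391 were called, 618 with the Y-linked covariate, 296 at an adjusted p under 0.01, 2157 with array weights, and 244 to 2155 with 1 array left out (WT replicates 1, 2 and 3 left out gave 244, 274 and 434, and SRSF3HKO replicate 2 left out gave 2155). In the wider list 1 gene was called, 0 at an adjusted p under 0.01, 2 with the mean over probe sets or median polish, 3 with eBayes without trend, robust eBayes, the filter at the median gene, median centring or quantile normalization (Gcgr, Adra1b and Stbd1 in each of these), 6 with array weights, and 0 to 4 with 1 array left out. Of the 172 tested probe sets of the 9 genes, 21 were called, against 9.05% of all probe sets tested, and 14 of the 21 were of Pygl. The count was 11 with the Y-linked covariate and 7 at an adjusted p under 0.01, all of Pygl. It was 13 without a filter, and 4 to 30 with 1 array left out (4, 7 and 8 for the WT arrays, all of Pygl). The 2 usage calls became 1 with the Y-linked covariate, 1 without a filter, 1 with a pseudocount of 1 or of 64 and 0 with the splicing index, and 0 to 1 with 1 array left out.

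With 3 arrays a group, the widest 95% interval of the 9 genes, that of Ppp1r3b, ran from -2.67 to -0.37, and probe sets below the floor were not tested. The small changes of 5 uncalled genes turned sign in some alternatives, and the cause of each shift listed here was not tested. Gys2 was -0.10 with the Y-linked covariate, -0.22 with array weights, -0.022 with median centring and -0.011 with median polish, and -0.30 to 0.21 with 1 array left out. Phka2 was -0.0098 with the covariate, -0.047 with array weights, -0.013 with median centring and -0.025 with quantile normalization, and -0.053 to 0.094 with 1 array left out. Phkb was -0.048 with the mean over probe sets, -0.046 with median centring, -0.042 with median polish and -0.057 with quantile normalization, and -0.21 to 0.16 with 1 array left out. Phkg2 was -0.036 with array weights, -0.0047 with median centring and -0.021 with quantile normalization, and -0.13 to 0.25 with 1 array left out. Ugp2 was 0.11 with the mean over probe sets and 0.11 with median polish, and -0.28 to 0.24 with 1 array left out.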
